A study of Mus musculus with 31 samples.

Results

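Tet1CD was compared with Flag at day 3 of reprogramming in 8 libraries of RNA sequencing that received no vitamin C. They are 8 of the 31 libraries of the study, chosen by virus, medium and day as the labels give them. Mouse cells of a 129/OG2 strain at passage 0 were being reprogrammed with OKSM, the transcription factors Pou5f1 (Oct4), Klf4, Sox2 and Myc, and carried either the Tet1CD virus (4 libraries) or the Flag virus (4 libraries). Cells with each virus were kept in DKG or in DMSO, and each combination has a library numbered 0824 and a library numbered 0826. All 8 libraries therefore share the OKSM factors, and Tet1CD and Flag libraries of the same medium and number form 4 pairs. The other libraries of the study come from vitamin C cultures, from day 8, and from embryonic stem cells and fibroblasts.

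The labels do not say which part of Tet1 the virus encodes, what drives its expression, what DKG stands for, at which dose it was given, or whether the numbers 0824 and 0826 mark animals, cultures or dates. They also do not say whether the DKG and DMSO cultures of a number were started separately, and the p-values below cover only how these pairs vary, part of which may be technical. Levels are CPM, read counts relative to the library total after scaling for composition. Sets of 4 values follow the order DKG 0824, DMSO 0824, DKG 0826 and DMSO 0826. A gene was called higher or lower at a Benjamini-Hochberg adjusted p under 0.05 in edgeR's quasi-likelihood test with the pair as a block. Errors of log2 fold changes are standard errors derived from the F statistic of that test. The spread behind them is taken partly from other genes. Errors of differences between media, vitamin C states or days come from the fit of that contrast.

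TET enzymes oxidise methylated cytosine in DNA, using iron and alpha-ketoglutarate, and vitamin C raises their activity in many systems. Oxidised cytosine can be diluted by replication or excised by base excision repair, both of which lead to loss of methylation. During reprogramming of fibroblasts the early days are known for loss of mesenchymal gene expression and faster cycling, while the pluripotency network comes on late. Interferon-stimulated genes answer type I interferon, which cells make when sensors meet double-stranded RNA or cytosolic nucleic acid, through transcription factors that bind a motif called ISRE in their promoters.

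Tet1 itself separated the viruses in every library. It had 705, 689, 571 and 579 CPM in the Tet1CD libraries, against 7.73, 7.28, 15.8 and 9.97 CPM in the Flag libraries. The groups lay far apart, and the log2 fold change was 5.97 ± 0.11 (edgeR adjusted p = 1.37e-17). The gene (ENSMUSG00000047146) spans chromosome 10, positions 62804570 to 62908996 of mm10, with 13 exons in its longest annotated transcript of 14369 bases. The effective length that the authors' RSEM run assigned to it was 2062, 2025, 2115 and 2144 bases in Tet1CD libraries, against 11734, 10278, 5134 and 6440 bases in Flag libraries. The lengths in Tet1CD libraries lay close together and below every Flag value. On the TPM scale, which divides by that length, Tet1 reached 523 to 667 with Tet1CD and 1.28 to 6.15 with Flag. Reads of the introduced and the endogenous gene cannot be told apart in these gene totals.

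Of the other TET enzymes, Tet3 fell and Tet2 did not pass the test. Tet3 had 80.2, 96.6, 80.4 and 74.6 CPM in the Tet1CD libraries, against 101, 126, 97.1 and 97.6 CPM in the Flag libraries, with no overlap (log2 fold change -0.34 ± 0.06, adjusted p = 0.000299). The Flag library of DMSO 0824 was the highest. Tet2 had 74.1, 93.3, 38.5 and 35.6 CPM in the Tet1CD libraries, against 75.7, 88.4, 40.4 and 37.2 CPM in the Flag libraries, and its levels followed the number rather than the virus (log2 fold change -0.01 ± 0.07, adjusted p = 0.969).

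All 4 reprogramming factors were lower with Tet1CD, by similar small steps, where 3.24% of all genes tested were lower. Pou5f1, the defining factor of pluripotent cells, had 1549, 1533, 786 and 817 CPM in the Tet1CD libraries, against 1823, 1858, 881 and 991 CPM in the Flag libraries (log2 fold change -0.24 ± 0.03, adjusted p = 5.24e-05). Sox2, its DNA-binding partner, had 993, 949.5, 385 and 413 CPM in the Tet1CD libraries, against 1079, 1150, 437 and 497 CPM in the Flag libraries (log2 fold change -0.21 ± 0.04, adjusted p = 0.000793). Klf4 and Myc had log2 fold changes of -0.20 ± 0.03 and -0.19 ± 0.03. Each factor was lower with Tet1CD in all 4 pairs, while the 0824 libraries carried more of every factor than the 0826 libraries with either virus, so the groups overlapped. Introduced and endogenous transcripts of these genes cannot be separated here.

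**Figure D1:**
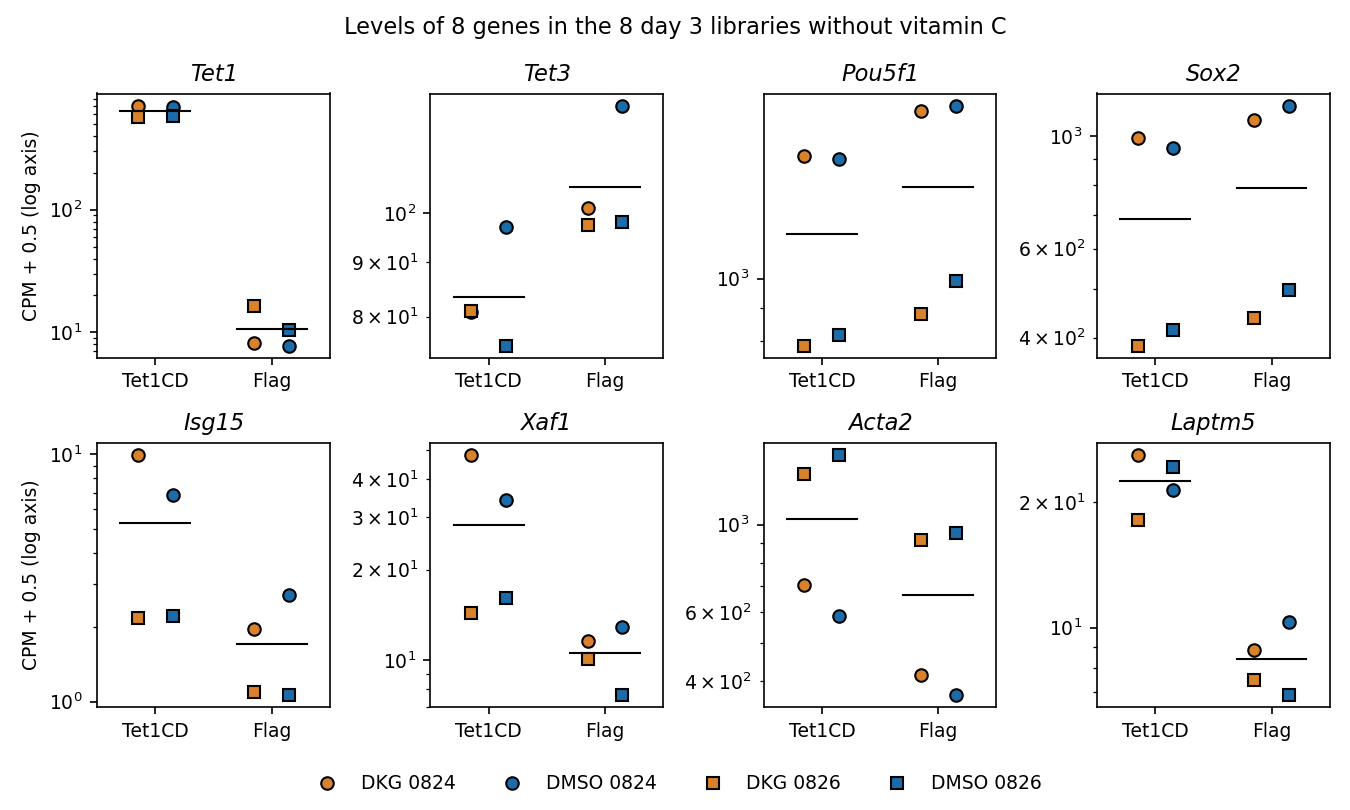
Levels of 8 genes in the 8 libraries, as CPM plus 0.5 on log axes, with Tet1CD at the left and Flag at the right of each panel; the colour marks the medium, the shape marks the number, and the line is the mean of 4 libraries. Tet1, Tet3, Xaf1 and Laptm5 do not overlap between viruses, whereas Pou5f1, Sox2, Isg15 and Acta2 overlap and are separated by number.

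The labelled state was checked against markers. Fibroblast markers were abundant in both groups: Col3a1 was at 428 to 594 CPM with Tet1CD and 422 to 592 CPM with Flag, and Prrx1 at 518 to 705 CPM with Tet1CD and 490 to 715 CPM with Flag. Nanog, Fbxo15 and Utf1, markers of established pluripotent cells, were near the counting limit, while Dppa5a, also chosen as a marker, is not described here. Nanog was at 1.05 to 3.22 CPM with Tet1CD and 0.999 to 3.22 CPM with Flag, Fbxo15 at 0.628 to 3.83 CPM with Tet1CD and 2.26 to 4.4 CPM with Flag, and Utf1 was at 0 in all Tet1CD libraries. Esrrb, Zfp42, Utf1 and Tdgf1 fell under the minimum count for a test.

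Libraries held 4206368 to 4872533 counts with Tet1CD and 4750352 to 5816953 counts with Flag, where 3 counts correspond to 0.516 to 0.713 CPM. Libraries of different numbers were the least alike: the mean squared deviation over the counting error was 9.6 to 12.4 between numbers, 3.56 to 5.76 between viruses and 1.76 to 4.33 between media. The Flag library of DKG 0824 stood apart in 3 genes named after their values were seen. Gm42418, which overlaps ribosomal RNA sequence, had 344, 437, 473 and 307 CPM in the Tet1CD libraries, against 4795, 395, 786 and 892 CPM in the Flag libraries. Lars2 had 132 to 190 CPM with Tet1CD and 125 to 879 CPM with Flag, and Gm26917 had 89.8 to 137 CPM with Tet1CD and 97.3 to 298 CPM with Flag. These genes took 0.602% of the counts of that library and 0.0524% to 0.135% of the others. All 3 were called lower with Tet1CD, and the part of this library in other results was measured by leaving out its pair.

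Of 12780 genes tested, 900 were higher with Tet1CD (7.04%) and 414 lower (3.24%), which is 10.3% in all. The differences were small. The median fold was 1.33 among the genes that rose and, taken as Flag over Tet1CD, 1.23 among those that fell, and 142 and 28 genes passed 2-fold. Of the genes that rose, 858 were higher in all 4 pairs, and of those that fell, 390 were lower in all 4. The 4 Tet1CD libraries lay wholly above or below the 4 Flag libraries for 354 of the 900 and 137 of the 414, against 817 of all genes tested (6.39%). Of the genes that rose, 76.2% had a higher level in the fibroblasts of the study than in its embryonic stem cells, against 37.4% of those that fell and 47.9% of all tested genes. Without the pair of DKG 0824, 610 genes were higher and 248 lower, and within 0826 alone 539 were higher and 263 lower. With no pair block 5 genes passed, and DESeq2 called 461.

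**Figure D2:**
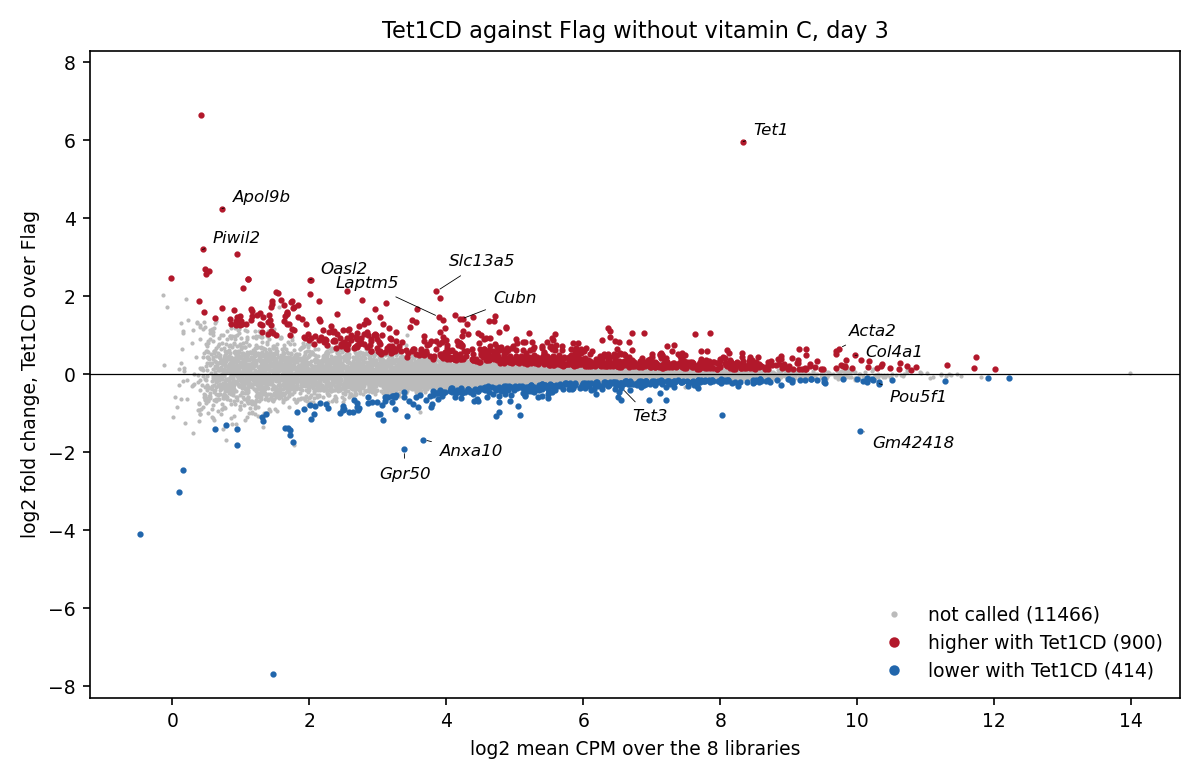
Each point is a tested gene, with its mean level over 8 libraries (log2 CPM) against its log2 fold change, Tet1CD over Flag; red and blue mark the 900 higher and 414 lower genes. Tet1 stands alone at a high level. The highest point is ENSMUSG00000103627, counted in none of the Flag libraries, and the lowest is Gm6563, counted in none of the Tet1CD libraries.

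Among the largest rises, the best measured was Slc13a5, a plasma membrane citrate transporter. It had 24.8, 20.5, 24.5 and 24.4 CPM in the Tet1CD libraries, against 5.85, 3.56, 7.59 and 4.7 CPM in the Flag libraries (log2 fold change 2.13 ± 0.15, adjusted p = 1.68e-08). Its Tet1CD levels lay within a narrow band, well above every Flag level, in both numbers and both media. Entpd1, the ectonucleotidase CD39, had 4.06, 6.35, 9.22 and 7.93 CPM in the Tet1CD libraries, against 0.836, 1.52, 2.2 and 0.564 CPM in the Flag libraries (log2 fold change 2.41 ± 0.30, adjusted p = 1.88e-05). Glipr1, Msln and Ecm1 were chosen after their p-values were seen. Msln, the surface glycoprotein mesothelin, had 294, 238, 269.5 and 268 CPM in the Tet1CD libraries, against 139, 112, 132 and 139 CPM in the Flag libraries. Ecm1, a secreted matrix protein, had 304, 269.7, 324 and 344 CPM in the Tet1CD libraries, against 139.6, 109, 167 and 184 CPM in the Flag libraries. Both were about 2.05-fold and 2.09-fold higher with no overlap. Glipr1, a secreted and membrane-bound CAP-family protein, had 23.4, 17.2, 27.6 and 27.7 CPM in the Tet1CD libraries, against 6.48, 3.89, 6.59 and 7.71 CPM in the Flag libraries, which was 3.89-fold higher.

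Several of the largest fitted folds rest on few counts. Piwil2, a PIWI protein that silences transposons in the male germ line, had 45 counts in Tet1CD libraries and 5 in Flag libraries, a ratio of CPM of 10.4 (95% counting interval 4.15 to 33.7). Apol9b and Apol9a, near-identical apolipoprotein L genes whose shared reads may be split arbitrarily, had 56 against 3 and 61 against 8 counts. The ratio of CPM of Apol9b was 21.6, with an interval of 7.03 to 108. Hist2h2aa1, a histone H2A gene with a near-identical copy, had 45 against 7 counts, of which all Flag counts came from DKG 0824. Myoz2, Tspan32, Cfap61, Srgn and Gdf3 had 43 to 85 counts with Tet1CD and 8 to 22 with Flag, and log2 fold changes of 2.08 to 2.65. These intervals cover counting error only.

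Of the 12 largest falls, Gpr50 and Anxa10 rest on the most counts, while Gm12166, the largest by fold, had 4 counts in Tet1CD libraries and 40 in Flag libraries. Gpr50, an X-linked orphan receptor related to the melatonin receptors, had 6.08, 5.41, 2.93 and 2.79 CPM in the Tet1CD libraries, against 23, 24.2, 9.59 and 9.59 CPM in the Flag libraries (log2 fold change -1.93 ± 0.16, adjusted p = 1.33e-07). Anxa10, an annexin, had 5.18, 2.82, 6.91 and 9.22 CPM in the Tet1CD libraries, against 16.1, 10.8, 25.8 and 24.3 CPM in the Flag libraries (log2 fold change -1.67 ± 0.15, adjusted p = 2.88e-07). In both genes every Tet1CD library lay below every Flag library. Tslp, an epithelial cytokine, Csn1s1, a milk casein, and Irs4, an insulin receptor substrate, fell at low levels, with log2 fold changes of -1.81, -1.74 and -1.57 and no overlap. Rtl1, a paternally expressed imprinted gene, fell with a log2 fold change of -1.38 and overlapping groups. Among genes picked for their small p-values, Sema3c, a secreted guidance cue, had 90.1, 89.6, 106 and 103 CPM in the Tet1CD libraries, against 145, 133, 164 and 169.5 CPM in the Flag libraries. Dab1, an adaptor of the reelin pathway, had 12.8, 16.2, 19.5 and 19.5 CPM in the Tet1CD libraries, against 29.9, 37.4, 38.8 and 37.2 CPM in the Flag libraries, and Pcdh10 and Col11a1 were 0.636 and 0.667 times their Flag level.

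Interferon-stimulated genes showed the largest median rise of the lists described. Of 23 members tested, 18 were higher with Tet1CD and none lower, against 7.04% of all genes higher. The median log2 fold change was 1.41, against -0.01 over all genes tested. Several members reached the minimum count for a test through their Tet1CD libraries, so this count and this median are partly set by the filter. Oasl2, Oas3 and Usp18, for example, had mean Flag levels of 1.2, 0.284 and 0.881 CPM. Between groups 4 of the 23 members did not overlap, against 6.39% of all genes, and the rise was larger in the 0824 pairs. The median difference within pairs was 1.60 in DKG 0824, 1.14 in DMSO 0824, 0.185 in DKG 0826 and 0.515 in DMSO 0826, with 23, 23, 14 and 21 of 23 members positive. Fitted within 0824, 21 of 23 members were higher, against 777 of 12795 genes. Fitted within 0826, 1 of 17 was, namely Xaf1, against 539 of 12783 genes. Each of these fits has 1 residual degree of freedom and takes most of its spread from other genes. Leaving out the DKG 0824 pair left 5 of 23 members called, leaving out DMSO 0824 left 9, and leaving out DMSO 0826 or DKG 0826 left 15 and 20. In bulk RNA, a change in the number of cells that express a gene and a change per cell cannot be told apart.

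Promoter sequence is shown for members with and without the ISRE core. The windows cover 250 bases before to 50 bases after the annotated start, from RefSeq on GRCm38.p6, and capitals mark matches to the ISRE core, searched as GAAA, any 2 bases, GAAA, or on the other strand TTTC, any 2 bases, TTTC, with overlapping matches merged.
Isg15, chr4:156200769-156201068, minus strand: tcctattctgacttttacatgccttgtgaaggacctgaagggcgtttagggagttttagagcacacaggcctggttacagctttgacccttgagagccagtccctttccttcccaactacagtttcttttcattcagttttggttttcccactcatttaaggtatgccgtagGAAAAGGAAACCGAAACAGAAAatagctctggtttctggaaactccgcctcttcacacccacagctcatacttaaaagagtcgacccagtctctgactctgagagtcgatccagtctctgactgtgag
Ifit1, chr19:34640639-34640938, plus strand: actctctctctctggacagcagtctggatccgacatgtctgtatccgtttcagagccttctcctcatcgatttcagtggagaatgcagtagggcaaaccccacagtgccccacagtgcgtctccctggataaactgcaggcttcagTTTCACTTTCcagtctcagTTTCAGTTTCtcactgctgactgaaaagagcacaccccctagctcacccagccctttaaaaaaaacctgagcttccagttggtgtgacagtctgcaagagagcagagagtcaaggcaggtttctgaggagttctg
Bst2, chr8:71537423-71537722, minus strand: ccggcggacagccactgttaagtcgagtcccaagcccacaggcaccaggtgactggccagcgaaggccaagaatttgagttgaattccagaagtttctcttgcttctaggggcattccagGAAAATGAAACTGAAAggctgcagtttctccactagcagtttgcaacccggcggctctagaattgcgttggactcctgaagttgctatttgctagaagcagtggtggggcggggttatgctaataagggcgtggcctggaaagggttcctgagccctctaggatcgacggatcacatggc
Xaf1, chr11:72301379-72301678, plus strand: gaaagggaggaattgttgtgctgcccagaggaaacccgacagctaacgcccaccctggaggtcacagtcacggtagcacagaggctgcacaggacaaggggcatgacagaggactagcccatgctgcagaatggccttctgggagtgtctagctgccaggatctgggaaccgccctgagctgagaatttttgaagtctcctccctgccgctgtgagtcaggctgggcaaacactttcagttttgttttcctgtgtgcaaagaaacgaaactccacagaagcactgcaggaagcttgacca
Of the 18 members that rose, 14 had a window, and 9 of these held the motif (64.3%). It was present in 6.33% of the windows of all genes that rose, 2.55% of those that fell, 2.77% of 9753 windows of tested genes and 3.44% of all 32851 windows. A match is a description of the letters, and none of these data measure binding.

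Among the sensors, Ddx58 (RIG-I), which recognises viral RNA ends, had 27.5, 24.9, 20.1 and 20.6 CPM in the Tet1CD libraries, against 11.5, 13.9, 16.8 and 14.3 CPM in the Flag libraries (log2 fold change 0.71 ± 0.13, adjusted p = 0.00132). Its groups did not overlap. Ifih1 (MDA5), the sensor of long double-stranded RNA, had 11.5, 8.7, 4.61 and 4.29 CPM in the Tet1CD libraries, against 6.06, 3.39, 2.8 and 3.95 CPM in the Flag libraries (log2 fold change 0.83 ± 0.22, adjusted p = 0.0217), with overlap. Of the transcription factors, Irf7, the amplifier of interferon production, had 8.34, 8.7, 1.89 and 3 CPM in the Tet1CD libraries, against 2.3, 2.2, 1.6 and 1.69 CPM in the Flag libraries (log2 fold change 1.43 ± 0.31, adjusted p = 0.00411). Irf9, a DNA-binding factor of the interferon response, rose by a log2 fold change of 0.38. Stat2, a transcription factor activated by interferon receptors, had 32, 23.3, 22.2 and 22.3 CPM in the Tet1CD libraries, against 13.6, 17.3, 23.8 and 21.6 CPM in the Flag libraries and did not pass. It was higher with Tet1CD in both 0824 pairs, while in 0826 it was higher in the DMSO pair and lower in the DKG pair.

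Effector genes made up most of the rise. Isg15, a ubiquitin-like protein conjugated to targets during the antiviral response, had 9.46, 6.35, 1.68 and 1.72 CPM in the Tet1CD libraries, against 1.46, 2.2, 0.599 and 0.564 CPM in the Flag libraries (log2 fold change 1.92 ± 0.34, adjusted p = 0.00069). The 0824 libraries with Tet1CD stood highest, and the 0826 libraries with Tet1CD lay within the Flag range although each was above its own partner. Xaf1, a pro-apoptotic interferon-stimulated gene on chromosome 11, positions 72301629 to 72313733, had 47.8, 33.6, 13.8 and 15.7 CPM in the Tet1CD libraries, against 11.1, 12.4, 9.59 and 7.15 CPM in the Flag libraries (log2 fold change 1.41 ± 0.17, adjusted p = 9.62e-06). It was the member that passed in both numbers, and its groups did not overlap. Oasl2, an oligoadenylate synthetase-like protein, had 13.5, 9.17, 2.09 and 2.57 CPM in the Tet1CD libraries, against 1.67, 1.19, 0.999 and 0.941 CPM in the Flag libraries (log2 fold change 2.42 ± 0.33, adjusted p = 5.46e-05). Oas2, which makes the oligoadenylate that activates RNase L, had 21.2, 15.1, 0.209 and 2.14 CPM in the Tet1CD libraries, against 2.51, 4.06, 0.599 and 0.941 CPM in the Flag libraries, and was lower in Tet1CD than in Flag in the DKG 0826 pair. Bst2 (tetherin), which holds budding virus at the membrane, had 47.3, 38.8, 13.6 and 13.9 CPM in the Tet1CD libraries, against 26.1, 24.4, 13.8 and 11.3 CPM in the Flag libraries (log2 fold change 0.56 ± 0.12, adjusted p = 0.00424). Gbp3, Ifit1, Ifit3, Oas1a, Oas3, Rtp4, Usp18, Ifi44 and Zbp1 rose with log2 fold changes between 1.06 and 2.47. Oas1a has close copies, so its share of reads is uncertain.

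Members outside the call included Gbp2, Rsad2, Stat2 and Ifit2, the last with 6.76, 5.88, 12.8 and 13.7 CPM with Tet1CD and 4.81, 5.42, 14.8 and 13.7 CPM with Flag. Ifitm3, a restriction factor of viral entry that was named after its values were seen, had 396, 347, 265 and 265 CPM in the Tet1CD libraries, against 276, 232, 239 and 259 CPM in the Flag libraries. Its effect differed between numbers, by -0.461 on the log2 scale, 0826 minus 0824 (adjusted p = 0.0465). It was among 9 genes whose virus effect differed between numbers, with 923 at an unadjusted p under 0.05.

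**Figure D3:**
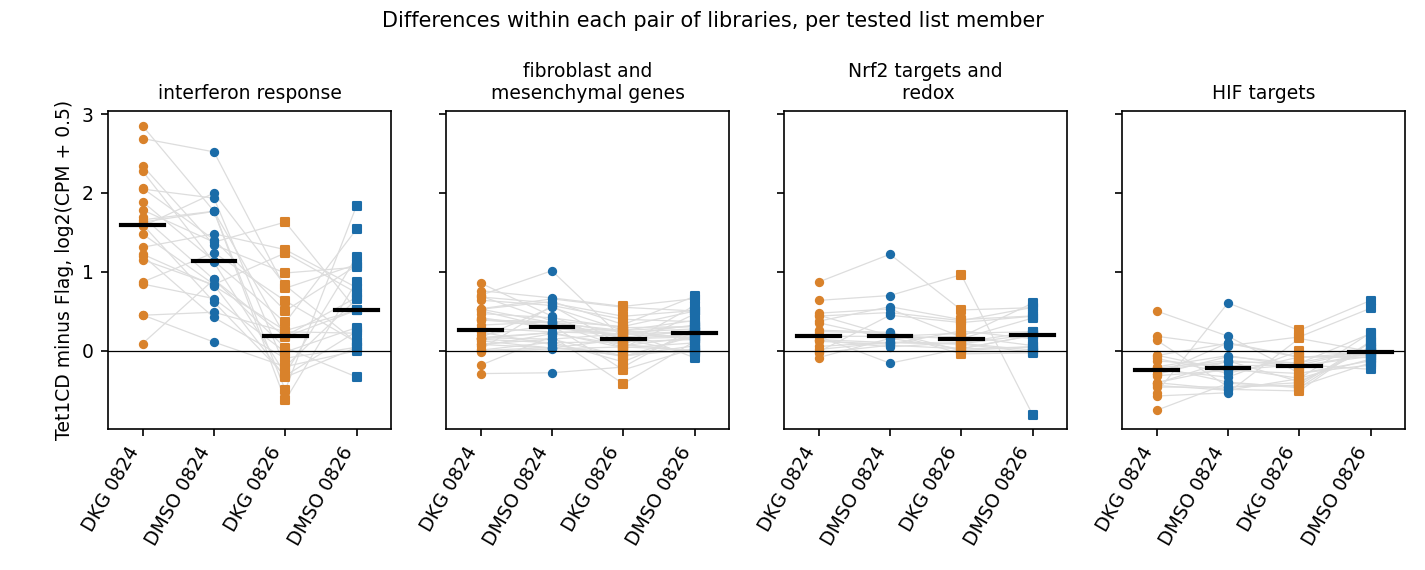
Each point is a tested member of the named list, and its height is the difference Tet1CD minus Flag in log2(CPM + 0.5) within a pair of libraries; grey lines join the same gene and black bars are medians. Interferon medians are 1.60 and 1.14 in the 0824 pairs and 0.185 and 0.515 in the 0826 pairs, while in the same order the fibroblast medians are 0.261, 0.303, 0.152 and 0.218 and the HIF medians -0.243, -0.221, -0.192 and -0.0131.

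Fibroblast and mesenchymal genes included rises in both numbers and no falls. Of 34 members, all tested, 19 were higher and none lower, against 7.04% and 3.24% of all genes, with a median log2 fold change of 0.23. Within 0824, 18 were higher, against 777 of 12795 genes, and within 0826, 16 were, against 539 of 12783. Acta2, smooth muscle actin and the usual mark of contractile fibroblasts, had 703, 586, 1346 and 1506 CPM in the Tet1CD libraries, against 415, 368, 913 and 954 CPM in the Flag libraries (log2 fold change 0.66 ± 0.04, adjusted p = 1.18e-09). The 0826 libraries carried more than the 0824 libraries with either virus, yet each Tet1CD library exceeded its partner by a similar step. Tagln (transgelin), another actin-binding contractile protein, had 214, 182, 447 and 479 CPM in the Tet1CD libraries, against 133, 119.9, 331 and 337 CPM in the Flag libraries (log2 fold change 0.54 ± 0.05, adjusted p = 1.28e-07). S100a4, a calcium-binding protein of motile fibroblasts, rose by 0.56 and Thy1, a fibroblast surface antigen, by 0.55 on the log2 scale.

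Col6a1, a collagen VI chain, had 694, 625, 732 and 786 CPM in the Tet1CD libraries, against 445, 420.3, 556 and 609.5 CPM in the Flag libraries (log2 fold change 0.49 ± 0.04, adjusted p = 3.49e-07), and the groups did not overlap. Fn1 (fibronectin) had 2263, 2148, 3268 and 3282 CPM in the Tet1CD libraries, against 1855, 1822, 2824 and 2778 CPM in the Flag libraries (log2 fold change 0.24 ± 0.03, adjusted p = 4.77e-06). Fbln5, Lox, Col1a1, Col1a2, Col5a1, Col6a2 and Fbn1, which build elastic and collagen fibres, rose by 0.17 to 0.37. Vim rose by 0.12, and Pdgfrb, a growth factor receptor of mesenchymal cells, by 0.47. Snai1, a repressor of epithelial genes, rose by 0.36 and Tgfb1, a ligand that drives matrix synthesis, by 0.34. Thbs1 and Lrp1, picked for their small p-values, were 1.37-fold and 1.51-fold higher. The 4 reprogramming factors were lower in the same pairs, with a median log2 fold change of -0.20, and the part of that difference in the fibroblast result was not tested. Of 10 epithelial genes tested, none passed. The pair with the smallest p were Krt19, at 14.7, 10.1, 22.6 and 27.7 CPM with Tet1CD and 14.2, 13.7, 32.8 and 32.7 CPM with Flag, and Esrp2, at 6.31, 7.05, 3.98 and 3.64 CPM with Tet1CD and 8.99, 7.62, 6.19 and 7.15 CPM with Flag.

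**Figure D4:**
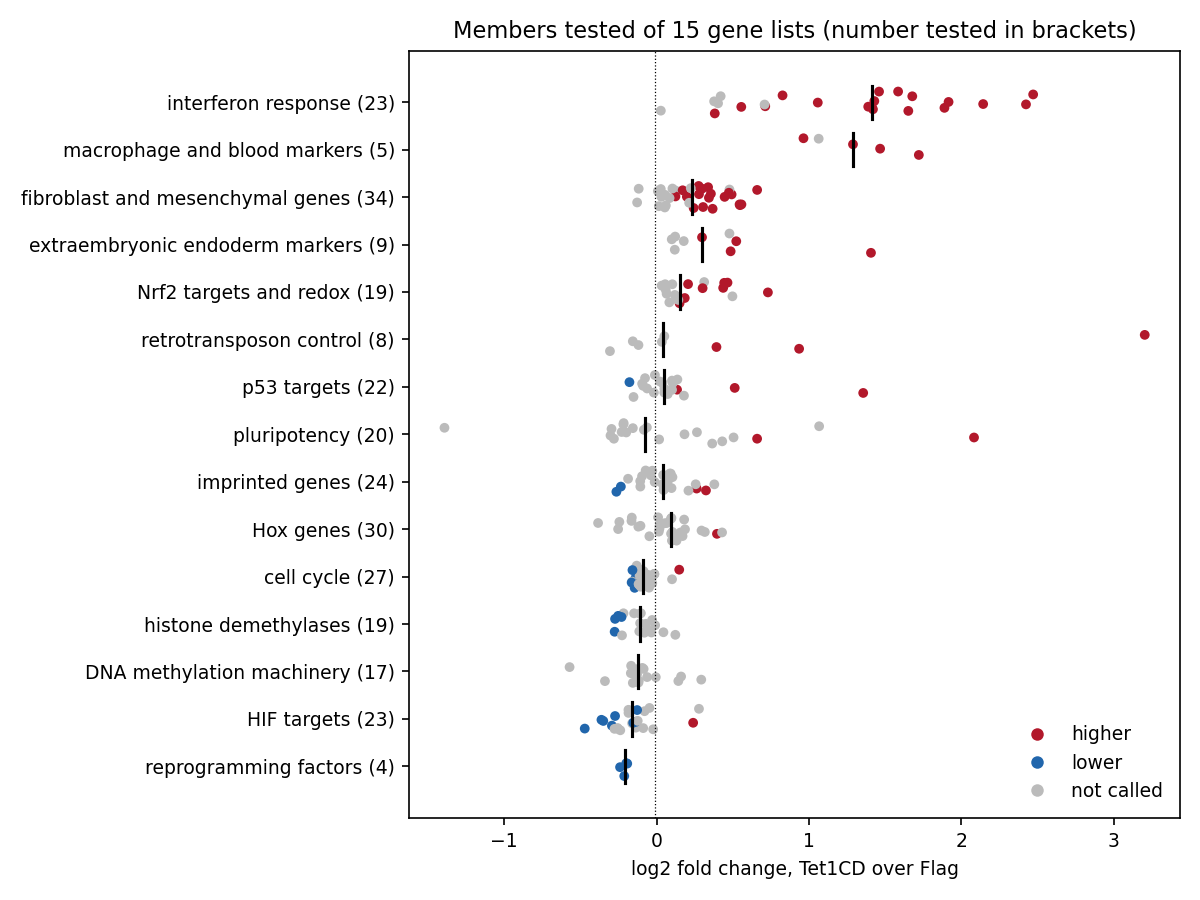
Log2 fold changes, Tet1CD over Flag, of the tested members of 15 gene lists, one point per gene; red marks higher, blue lower and grey not called, and black bars are medians. The interferon and macrophage lists lie farthest right, the fibroblast list is shifted by a small step, and the HIF list and the reprogramming factors lie left of zero.

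Some genes of the extraembryonic endoderm list rose, while most markers that define that tissue were at 0 or below the minimum for a test. Of 9 members tested, 4 were higher: Col4a1, Col4a2, Cubn and Sparc, with Sparc also on the fibroblast list, against 7.04% of all genes. Col4a1, a chain of collagen IV, the basement membrane collagen, had 1219, 1198, 1150 and 1111 CPM in the Tet1CD libraries, against 875, 856, 769 and 840.3 CPM in the Flag libraries (log2 fold change 0.49 ± 0.04, adjusted p = 2.21e-08). Col4a2, its partner chain, transcribed from the same intergenic region on the opposite strand, had 989, 976, 978 and 952 CPM in the Tet1CD libraries, against 702, 690.2, 632 and 688 CPM in the Flag libraries (log2 fold change 0.52 ± 0.04, adjusted p = 1.59e-08). Cubn (cubilin), an endocytic receptor of absorptive epithelia, had 25.7, 20.9, 28.3 and 32.4 CPM in the Tet1CD libraries, against 10.2, 8.97, 9.59 and 11.5 CPM in the Flag libraries (log2 fold change 1.41 ± 0.11, adjusted p = 8.77e-08). The groups did not overlap for any of these 3. Sox17, Foxa2 and Ttr were at 0 in all 8 libraries, and Gata4 and Afp were below the minimum for a test. Gata6, an endoderm transcription factor, was detected, with 5.41, 6.35, 7.54 and 10.1 CPM in the Tet1CD libraries, against 5.43, 7.45, 5.99 and 6.96 CPM in the Flag libraries, and did not pass.

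Several genes known from macrophages and other blood cells were also higher. Of 13 markers, 5 could be tested and 4 of these rose, against 7.04% of all genes. Itgam reached the minimum for a test through its Tet1CD libraries, so this share is partly set by the filter. Laptm5, a lysosomal membrane protein of blood cells, had 25.5, 20.9, 17.6 and 23.8 CPM in the Tet1CD libraries, against 8.36, 9.82, 6.99 and 6.4 CPM in the Flag libraries (log2 fold change 1.47 ± 0.14, adjusted p = 8.35e-07). Itgam, the integrin CD11b, had 6.31, 3.06, 5.65 and 6.22 CPM in the Tet1CD libraries, against 1.05, 1.69, 1.8 and 1.69 CPM in the Flag libraries (log2 fold change 1.72 ± 0.31, adjusted p = 0.000793). Lyz2, lysozyme of macrophages, had 15.1, 12.2, 4.4 and 7.93 CPM in the Tet1CD libraries, against 3.55, 5.42, 3.2 and 3.57 CPM in the Flag libraries, with overlap, and Cd68 had 10.4, 7.76, 6.91 and 9 CPM in the Tet1CD libraries, against 4.6, 4.06, 3.6 and 5.08 CPM in the Flag libraries, without. Csf1r, the receptor that macrophages need, had 0.676, 2.59, 2.93 and 4.5 CPM with Tet1CD and 0.627, 2.03, 1.6 and 0.752 CPM with Flag and did not pass. The summed level of the 13 markers was 40.0 to 64.9 CPM with Tet1CD and 19.6 to 25.9 CPM with Flag. Ptprc, the pan-leukocyte marker, was at 0.676, 0.94, 0 and 0 CPM with Tet1CD and 0, 0, 0.599 and 0.188 CPM with Flag, near the counting limit, and Cd52 was at 0 in every Flag library. Ptprc, Adgre1, Tyrobp, Fcer1g, Cd14, Cd52, C1qa and C1qb were below the minimum for a test. The part of macrophages in the interferon result was not tested.

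Antioxidant genes controlled by Nrf2, the factor that answers electrophiles and oxidants, included more rises than falls. Of 19 members tested, 8 were higher and none lower, against 7.04% and 3.24% of all genes, with a median of 0.15 and all 19 fitted values positive. Without the DKG 0824 pair 5 were higher, with a median of 0.134. Nqo1, a quinone reductase, had 42.8, 37.4, 65.3 and 63.9 CPM in the Tet1CD libraries, against 23.2, 15.7, 45.6 and 43.6 CPM in the Flag libraries (log2 fold change 0.73 ± 0.10, adjusted p = 4.38e-05). Hmox1, which degrades haem, had 104, 81.8, 76.9 and 87.7 CPM in the Tet1CD libraries, against 76.7, 58.4, 58.9 and 59.8 CPM in the Flag libraries (log2 fold change 0.47 ± 0.06, adjusted p = 3.13e-05). Gsta4 and Gstm1, glutathione transferases, rose by 0.44 and 0.30, and Srxn1 (sulfiredoxin), G6pdx and Txnrd1, which supply reducing power, by 0.44, 0.21 and 0.15. Gstp1 has close copies. Within the numbers, 7 were higher in 0824, against 777 of 12795 genes, and 6 in 0826, against 539 of 12783. Adh7, an alcohol dehydrogenase picked for its small p, had 138, 111, 114 and 97.3 CPM in the Tet1CD libraries, against 59.4, 58.6, 55.5 and 38.9 CPM in the Flag libraries.

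Hypoxia-inducible (HIF) targets included more falls than rises. Of 23 tested, 8 were lower and 1, Ero1l, an oxidase of the endoplasmic reticulum, higher, against 3.24% of all genes lower. The median was -0.16. Within pairs the median difference was -0.243 in DKG 0824, -0.221 in DMSO 0824, -0.192 in DKG 0826 and -0.0131 in DMSO 0826, and no member passed a test of the difference between numbers. Kdm3a, a histone H3K9 demethylase that hypoxia induces, had 105, 122, 94 and 102 CPM in the Tet1CD libraries, against 139, 142, 120.1 and 110.2 CPM in the Flag libraries (log2 fold change -0.27 ± 0.06, adjusted p = 0.00326). Ldha, which turns pyruvate into lactate, had 1199, 1209, 1024 and 1108 CPM in the Tet1CD libraries, against 1397, 1319, 1170 and 1166 CPM in the Flag libraries (log2 fold change -0.15 ± 0.03, adjusted p = 0.00522). Pdk1, which blocks pyruvate entry into the mitochondrion, had 64.5, 72.2, 38.3 and 40.9 CPM in the Tet1CD libraries, against 89, 99.5, 52.2 and 37.8 CPM in the Flag libraries, lower in 3 of the 4 pairs. Eno1, Pgk1 and Slc2a1, of glycolysis and glucose uptake, fell by 0.13, 0.13 and 0.29 on the log2 scale, and Bnip3 and Ndrg1 by 0.36 and 0.47. Within 0824, 11 members were lower, against 316 of 12795 genes. Within 0826 Ldha was lower and Ero1l higher, against 263 lower and 539 higher of 12783 genes. Without the DKG 0824 pair 2 members were lower and none higher, with a median of -0.161, and without the DMSO 0826 pair 11 were lower.

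Histone demethylases, which like TET enzymes are largely iron and alpha-ketoglutarate dioxygenases, had 4 of 19 members lower and none higher, against 3.24% of all genes lower. With a pair left out 1 to 3 were lower, the fewest without DKG 0826 and 2 without DMSO 0824. Besides Kdm3a these were Kdm6b, Kdm7a and Kdm4b, which act on H3K27 or H3K9 methylation, with log2 fold changes of -0.23, -0.25 and -0.27. Kdm6b had 97.8, 102, 64.1 and 77.2 CPM in the Tet1CD libraries, against 111, 123, 78.9 and 86.3 CPM in the Flag libraries. Of 17 genes of the DNA methylation machinery none passed, and the nearest were Mbd3, a NuRD subunit (127, 135, 101 and 119.8 CPM with Tet1CD and 151, 149, 124 and 119 CPM with Flag), and Ogt, a glycosyltransferase that binds TET proteins (499, 511, 364 and 350.2 CPM with Tet1CD and 569.5, 596, 364 and 371 CPM with Flag). Of 16 genes of base excision of oxidised cytosine, Gadd45g rose by 0.27 and Parp1 fell by 0.16, against 7.04% and 3.24% of all genes. Cbx5 (HP1 alpha), a heterochromatin protein, was the 1 of 14 H3K9 genes that fell, against 3.24% of all genes. None of 12 PRC2 genes passed, Ezh2 having 79.8, 90, 89 and 84.2 CPM with Tet1CD and 93.4, 97.5, 93.5 and 102 CPM with Flag.

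Genes of proliferation moved by small steps, most of them downward in the fit of all pairs but not in the DMSO 0824 pair. Of 27 cell cycle genes, Mki67, Top2a, Mcm6 and Mcm2 fell and Ccnd2 rose, against 3.24% of all genes lower and 7.04% higher. The median was -0.09, and 2 of the 27 fitted values were positive. Within pairs the median difference was -0.092 in DKG 0824, 0.0376 in DMSO 0824, -0.128 in DKG 0826 and -0.0916 in DMSO 0826. In the same order 7, 17, 2 and 4 of the 27 were positive. Within 0824, 1 was higher and 0 lower, against 777 and 316 of 12795 genes. Within 0826, 1 was higher and 3 lower, against 539 and 263 of 12783 genes. Between groups 5 of the 27 did not overlap, against 6.39% of all genes. Mki67, the proliferation antigen, had 494, 525, 509.7 and 481 CPM in the Tet1CD libraries, against 527, 552, 548 and 593 CPM in the Flag libraries (log2 fold change -0.14 ± 0.04, adjusted p = 0.0352). Ccnd2, a D-type cyclin, rose by 0.15. The falls were lost when any of the pairs other than DMSO 0824 was left out. Of 22 p53 targets, Gdf15, Cdkn2b and Cdkn1a rose and Perp fell, against 7.04% and 3.24% of all genes. Gdf15, a stress-induced cytokine, had 3.38, 2.59, 6.7 and 5.14 CPM in the Tet1CD libraries, against 0.836, 1.35, 2.2 and 2.45 CPM in the Flag libraries, with no overlap. Cdkn2b, an inhibitor of cyclin-dependent kinases that is not itself a classical p53 target, rose by 0.51, and Cdkn1a (p21) by 0.13.

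Of 20 pluripotency genes tested, L1td1 and Gdf3 rose and none fell, against 7.04% and 3.24% of all genes, with a median of -0.07. L1td1, an RNA-binding protein of pluripotent cells, had 109.7, 105, 40.8 and 51.9 CPM in the Tet1CD libraries, against 63.3, 71.8, 31.4 and 27.8 CPM in the Flag libraries (log2 fold change 0.66 ± 0.08, adjusted p = 8.56e-06). Gdf3, a ligand of the TGF-beta family, had 9.69, 5.41, 1.89 and 2.14 CPM in the Tet1CD libraries, against 1.25, 1.02, 1.2 and 0.752 CPM in the Flag libraries (log2 fold change 2.08 ± 0.37, adjusted p = 0.000809). Both were higher in 0824 than in 0826 libraries with Tet1CD. Of the 32 methylation-silenced germline genes, 3 reached the minimum for a test and Piwil2 was the 1 that rose, against 7.04% of all genes. It had 3.61, 1.65, 3.35 and 1.29 CPM in the Tet1CD libraries, against 0.209, 0.169, 0.4 and 0.188 CPM in the Flag libraries, so the level stayed at a few counts. Piwil2 reached the minimum for a test only through its Tet1CD libraries. Its share among the genes tested, here and in the next list, is therefore not separate from its rise. The retrotransposon control list, of which Piwil2 is also a member, had 8 genes tested and 3 higher, against 7.04% of all genes, the others being Tdrd7 (24.6, 25.6, 31.8 and 27.2 CPM with Tet1CD and 23.6, 15.6, 22 and 22.4 CPM with Flag) and Morc1 (8.11, 7.76, 2.09 and 3.43 CPM with Tet1CD and 4.18, 4.74, 1.4 and 0.941 CPM with Flag). With a pair left out 1 or 2 were higher, 1 without DMSO 0824. Within 0824, 1 was higher and 1 lower, against 777 and 316 of 12795 genes. Within 0826 none was higher and 1 lower, against 539 and 263 of 12783 genes. Of the 24 genes of X-linked germline clusters, 16 were at 0 in all 8 libraries and 1, Xlr3b, could be tested. Its levels were 6.76, 5.41, 4.82 and 5.79 CPM with Tet1CD and 3.97, 6.26, 4.4 and 5.08 CPM with Flag. Of the 15 genes on the two-cell-like list, 1, Eif1a, could be tested, at 265, 254, 271 and 269 CPM with Tet1CD and 240.1, 237, 278 and 252 CPM with Flag. The Zscan4, Usp17l and Tcstv genes of the list were below the minimum for a test, so the level of Eif1a alone does not mark that state.

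Of 24 imprinted genes tested, 2 were higher and 2 lower, against 7.04% and 3.24% of all genes. Rtl1, which fell, is not counted among these. Rian and Meg3, noncoding RNAs of the same imprinted cluster as Rtl1, rose by 0.32 and 0.26, while H19 and Peg3 fell by 0.26 and 0.23. Of 30 Hox genes, 1 rose, against 7.04% of all genes, namely Hoxc8 (23.4, 18.3, 25.3 and 27.4 CPM with Tet1CD and 14.4, 15.9, 20.8 and 20.5 CPM with Flag). Of 10 clustered protocadherins, whose shared exons make the assignment of reads uncertain, Pcdhgb1 rose by 1.15, against 7.04% of all genes higher. Of 6 stratified epithelium genes tested, Krt14 and Sfn rose and Pkp1, a desmosomal protein, fell, against 7.04% and 3.24% of all genes. Krt14, a basal keratin, had 20.5, 22.3, 24.1 and 21 CPM in the Tet1CD libraries, against 8.36, 12.7, 10.6 and 7.15 CPM in the Flag libraries (log2 fold change 1.18 ± 0.13, adjusted p = 4.77e-06), while Krt5, its usual partner, and Trp63 were below the minimum for a test. Fosl2 of 11 AP-1 genes, Nes of 6 neural genes and Des of 2 muscle genes rose, by 0.31, 0.33 and 0.69. These counts stand against the same 7.04% of all genes higher. Of 24 genes of the integrated and endoplasmic reticulum stress responses, Nupr1 rose by 0.49, against 7.04% of all genes higher. Phgdh and Shmt2, of serine and glycine synthesis, fell by 0.20 and 0.16, against 3.24% of all genes lower. None of 4 developmental regulators or 3 endothelial markers passed, and no trophoblast marker reached the minimum.

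The Tet1CD effect was also fitted within each medium. Within DKG alone, 312 genes were higher and 68 lower with Tet1CD (2.44% and 0.532% of 12780, 2.97% in all), and within DMSO alone 339 were higher and 80 lower (2.65% and 0.626%, 3.28% in all). Of these, 214 higher genes were common to the media, 68.6% of the DKG list and 63.1% of the DMSO list, and 24 lower genes, 35.3% of the DKG list and 30% of the DMSO list. No gene was called in opposite directions. Leaving out a library gave 103 to 344 calls in DKG and 90 to 394 in DMSO. Of the interferon list 5 members passed in DKG and 2 in DMSO, with medians of 1.3 in DKG and 1.33 in DMSO, and 13 fibroblast members passed in each.

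The difference of the Tet1CD effect between DKG and DMSO passed for 2 genes (0.0156% of 12780), with 420 at an unadjusted p under 0.05. Malat1, an abundant nuclear noncoding RNA, had 1446, 1223, 1298 and 1009 CPM in the Tet1CD libraries, against 1160, 1478, 824 and 1137 CPM in the Flag libraries. It was higher with Tet1CD in both DKG pairs and lower in both DMSO pairs, and the difference, DKG minus DMSO, was 0.71 ± 0.09, adjusted p = 0.0108 in edgeR. Gm37167 had 15.1, 0, 0 and 0 CPM in the Tet1CD libraries, against 7.52, 12, 0 and 0 CPM in the Flag libraries, and its difference of 8.81 rests on the 0 of Tet1CD in DMSO 0824. A p that missed the threshold elsewhere does not show that the media act alike.

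With vitamin C the comparison rests on 2 Tet1CD and 2 Flag libraries, all separate from those above, in a fit of 12 libraries. There, 1591 genes were higher and 1000 lower of 13079 (12.2% and 7.65%, 19.8% in all). The same fit called 415 higher and 104 lower without vitamin C, against 900 and 414 in the fit of 8 libraries. Of the 900 genes of the fit of 8 that were higher without vitamin C, 669 were also higher with it (74.3% of the first list and 42% of the second), and of the 414 lower genes 203 (49% and 20.3%). Median log2 fold changes of the 900 were 0.41 without and 0.73 with vitamin C. The Tet1 effect itself did not pass a test of the difference (-0.24 ± 0.37, adjusted p = 0.798), and Tet1 had 442 and 485 CPM with Tet1CD, against 5.71 and 12.2 CPM with Flag with vitamin C.

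The effect of Tet1CD differed with vitamin C for 236 genes (1.8%), 203 of them with a more positive value (1.55%) and 33 with a more negative value (0.252%). Leaving out a pair moved that count widely, to 1913 without the vitamin C pair of 0826, 630 without that of 0824 and 60 to 109 without any of the pairs that had none. The 5 genes with the smallest p were Gm29084, Gm38194, Noct, Wdr31 and Slc38a6. Without vitamin C, Noct, a circadian phosphatase gene, had 209, 221, 215 and 252 CPM with Tet1CD and 181, 187, 203 and 195 CPM with Flag. With vitamin C it had 5098 and 2963 CPM with Tet1CD, against 209.6 and 192 CPM with Flag in 0824 and 0826, and the difference, vitamin C minus none, was 4.06 ± 0.16, adjusted p = 1.1e-08 (edgeR). Slc38a6, a sodium-coupled amino acid transporter gene, had 252, 197, 242 and 260 CPM with Tet1CD and 173, 199.9, 218 and 193 CPM with Flag without vitamin C, and 6558 and 3729 CPM with Tet1CD, against 197 and 179 CPM with Flag with it. The 5 genes moved by similar steps. In the GENCODE transcripts, 4 of them share a stretch of 50 bases with another of the set. No such stretch was held by more than 2 of the genes, so reads from it may have been assigned to either of 2. Without vitamin C the folds of the 5 genes lay between 1.12 and 1.33. Among the lists, the interferon median was 1.41 without and 2.25 with vitamin C and no member passed the test of the difference. Isg15 had 41.2 and 10.2 CPM with Tet1CD, against 2.95 and 0.214 CPM with Flag with vitamin C. Of 22 p53 targets, 3 were higher without vitamin C and 13 with it, against 7.04% and 12.2% of all genes. The difference was positive and passed for 8, against 1.55% of all genes, Cdkn1a among them (0.52 ± 0.12, edgeR adjusted p = 0.0493).

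At day 8, with 4 Tet1CD and 4 Flag libraries of the same media, the comparison gave 1090 higher and 937 lower genes of 13619 (8% and 6.88%, 14.9% in all). Of the 900 genes higher at day 3, 254 were higher at day 8 (28.2%, and 23.3% of the day 8 list) and 32 were lower. Of the 414 lower at day 3, 124 were lower at day 8 (30% and 13.2%) and 35 were higher. The effect differed between days for 554 genes (4.07%), and for 286 to 356 when any of the day 3 pairs was left out. Proliferation genes were the plainest case. At day 3, 1 cell cycle gene was higher and 4 lower. At day 8, 24 of 27 were higher, against 8% of all genes, with a median of 0.50. The difference, day 8 minus day 3, was positive and passed for 21, against 2.42% of all genes. Mki67 had 481, 419, 517 and 478 CPM with Tet1CD, against 281, 234, 362 and 312 CPM with Flag at day 8, and the difference was 0.83 ± 0.09, adjusted p = 0.000112. Hmgb2 and Nusap1, of chromatin and the mitotic spindle, differed by 0.85 ± 0.09, adjusted p = 0.000112 and 0.89 ± 0.10, adjusted p = 0.000112.

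Of the 34 fibroblast genes, 19 rose at day 3, whereas at day 8, 4 were higher and 6 lower, against 8% and 6.88% of all genes. The difference, day 8 minus day 3, was negative and passed for 9, against 1.65% of all genes. Acta2 had 633, 658, 677 and 604 CPM with Tet1CD, against 678, 628, 684 and 892 CPM with Flag at day 8, and the difference was -0.81 ± 0.11, adjusted p = 0.000556. Krt14 at day 8 had 67.9, 74.9, 20 and 25.9 CPM with Tet1CD, against 81.4, 86.1, 25.3 and 34.6 CPM with Flag, lower with Tet1CD in every pair, and its difference was -1.46 ± 0.15, adjusted p = 0.000112. Of the pluripotency list, 2 of 20 were higher at day 3 and 10 at day 8, and 7 passed the difference, all positive, against 2.42% of all genes. Of the 23 interferon members, 18 were higher at day 3 and 23 at day 8, and 2 passed the difference. At day 8 the rise was present in both numbers for Isg15, which had 14.4, 10.7, 21.3 and 10.6 CPM with Tet1CD, against 1.58, 0.88, 1.87 and 2.1 CPM with Flag.

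**Figure D5:**
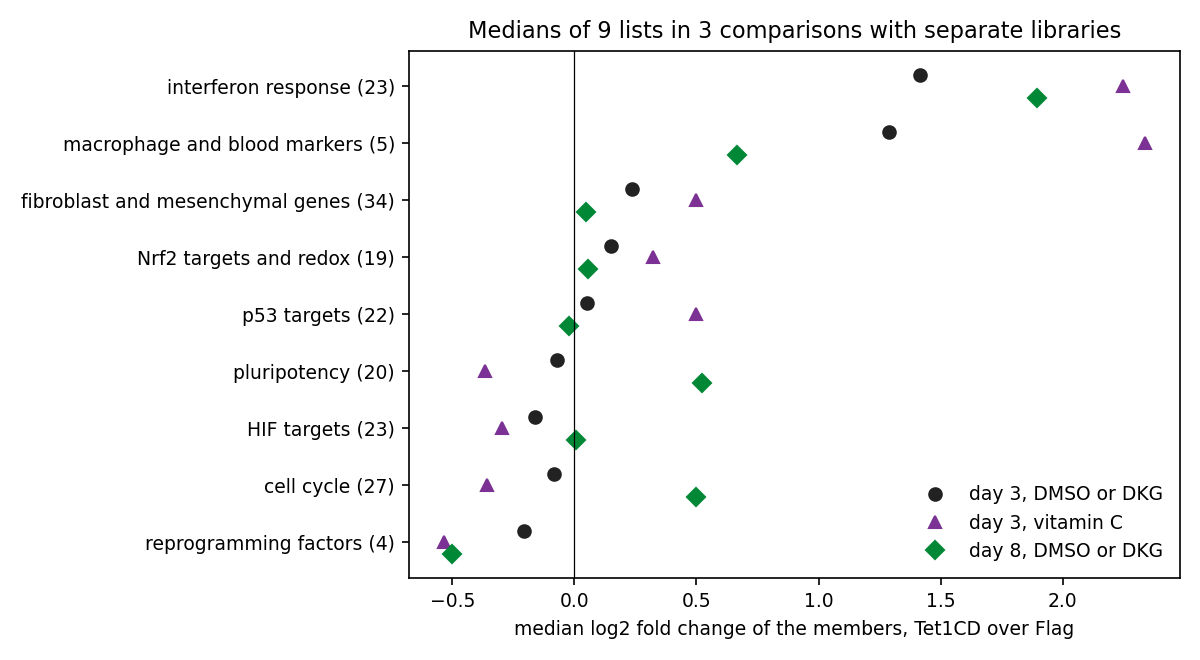
Median log2 fold change, Tet1CD over Flag, of the tested members of 9 lists at day 3 without vitamin C (circles), at day 3 with vitamin C (triangles) and at day 8 without vitamin C (diamonds), which use separate libraries. The interferon list lies right of zero in all 3, and the cell cycle list is at -0.09, -0.36 and 0.50.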

How the data were processed

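RNA was sequenced from cultures, per the labels' protocols after Trizol extraction and TruSeq library preparation from 1 ug of total RNA. Bowtie, RSEM and the mm10 build are named in the submitters' processing notes, with versions not given in the sources used here. The authors deposited expected counts, effective lengths and TPM values per gene from RSEM. Expected counts were rounded to whole numbers, and genes passing edgeR's filterByExpr over the 4 groups were kept (R 4.3.3, edgeR 4.0.16, limma 3.58.1). Of 29267 gene IDs, 28756 matched GENCODE M21, and the other 511 held at most 0.392% of a library's counts. Strand of the counting is not stated, so overlapping and antisense genes may share reads.

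Libraries were grouped by virus, medium and day from the labels. The main fit had the pair (medium and number) as block, TMM scaling and 3 residual degrees of freedom, with Benjamini-Hochberg adjustment over all genes tested. The pairing was checked on the deviations from group means: those by number correlated at 0.544 to 0.585 in 6 of 6 pairs of groups. Common dispersion was 0.00208 with the pair block and 0.0311 without. Media were tested in a fit of 4 group means with the number as block, vitamin C in a fit of 12 libraries and day 8 in a fit of 16, each paired. Differences within pairs and plots use log2(CPM + 0.5). The scripts were tested on simulated data. DESeq2 1.42.0 and other settings were alternatives.

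The members and the 32 lists were chosen with earlier results of these data known. Named genes were the TET and OKSM genes, the 12 largest rises and 12 largest falls with the same sign in all 4 pairs and a mean of at least 1 CPM, up to 4 called members per list (2 where none was called), and up to 5 genes per test of a difference. Other genes are said where they appear to have been chosen after their values were seen, or are remaining members of a list. Of the 31 libraries, 28 were read.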

Additional observations from a re-analysis of the deposited data

Results flagged for a closer look

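Among 218 groups of 4 libraries examined, 14 held a library far from the others by Dixon's criterion, where chance alone gives about 1 in 20. With Tet1CD these were Cfap61 at 6 CPM and Wdr31 at 23.8 CPM in DMSO 0826, Slc13a5 at 20.5 CPM and Suz12 at 132 CPM in DMSO 0824, and Pcdhgb1 at 7.33 CPM in DKG 0826. In DKG 0824 with Tet1CD, ENSMUSG00000098598 was at 1.35 CPM, Mcm6 at 180 CPM, Perp at 192 CPM and Gm37167 at 15.1 CPM. With Flag, Tet3 was at 126 CPM and Lyz2 at 5.42 CPM in DMSO 0824, while Hist2h2aa1 was at 1.46 CPM, Hmox1 at 76.7 CPM and Itgam at 1.04 CPM in DKG 0824.

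The effect of Tet1CD differed between DKG and DMSO for 2 genes, by 0.71 (Malat1) and 8.81 (Gm37167) on the log2 scale, DKG minus DMSO. It differed between vitamin C and none for 236 genes, led by Gm29084 (4.84), Gm38194 (4.97), Noct (4.06), Wdr31 (4.61) and Slc38a6 (4.45), vitamin C minus none. It differed between days for 554 genes, led by Gm38312 (1.31), Krt14 (-1.46), Hmgb2 (0.852), Gm37917 (1.68) and Nusap1 (0.891), day 8 minus day 3. Each difference passed an edgeR test of the contrast.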

How the results depend on the processing

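No named gene that was called changed sign under the alternatives run. For named genes not called, a change of sign was counted only where the alternative called the gene, and none was. The 1314 calls became 5 with no replicate block, 461 with DESeq2, 519 in a fit of 12 day 3 libraries and 413 in a fit of 24 libraries, and 802 to 1093 with a pair or number left out. Of these, leaving out DKG 0824 gave 858 and leaving out number 0824 gave 802. Other scaling (1312), no filter on low counts (1645), a robust spread (1500), the number alone as block (1073) and summed media (1472, chosen after seeing the data) stayed within 1.5 times.

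The 380 calls in DKG became 1 with no replicate block, 156 with DESeq2, 649 with no filter, 66 in the fit of 24 libraries and 103 to 344 with a library left out, within 1.5 times only without Tet1CD 0826. The 419 calls in DMSO became 1, 170, 731, 75 and 90 to 394 under the same settings, within 1.5 times only without Flag 0826. The 2 calls for DKG against DMSO became 0 with no block, 1 with DESeq2, 33 with no filter, 0 in the fit of 24 libraries and 1 to 9 with a library left out. The 236 calls for vitamin C became 19 with no block, 143 with DESeq2, 799 with no filter and 60 to 1913 with a pair left out, the highest being without the vitamin C pair of 0826. The 554 calls for day 8 became 4 with no block, 981 with no filter and 286 to 641 with a pair left out, moving by over 1.5 times without any of the day 3 pairs. The causes were not tested.

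Of 109 named genes, 22 kept their side of the threshold with no replicate block, 69 with DESeq2 and 109 with other scaling. With 4206368 to 5816953 counts a library, genes under a few CPM rest on few reads. The 4 pairs hold 2 numbers, and the interferon calls rest mainly on 0824.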
